A study of Mus musculus with 7 samples.

Results

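The genes described here are 10 genes of arterial endothelial identity, made up of a pair of Notch ligands (Dll4, Jag1), a pair of Notch receptors (Notch1, Notch2), a pair of HEY transcription factors that Notch switches on (Hey1, Heyl), a pair of SOXF transcription factors (Sox17, Sox18) and a pair of connexins (Gja4, Gja5). They were taken from the count table by gene symbol. All 10 were among the 20343 genes analysed, and all 10 were among the 7667 genes that passed the expression filter and were tested. RNA was measured in the apical myocardium of 7 mice of the strain labelled NSG-DRB1*0101, immunodeficient NSG animals carrying a human HLA-DR1 transgene, which both groups share. The 4 control hearts came from untreated mice, and the 3 transferred hearts from mice given human CD4+ T cells 6 weeks before collection. NSG mice have no mature T, B or natural killer cells of their own, so the response of the heart is read on that background, and age and sex are not given in the sources used here. The labels list separate hearts, so p-values measure the spread between these hearts. Their source names begin with letters for 1 heart of each group (control heart 1, transferred heart 1, here the letter-prefix hearts) and with numbers for the other 5, and what this form stands for is not given in the sources used here.

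Notch signalling passes between touching cells. A ligand such as DLL4 or JAG1 on one cell binds a NOTCH receptor on its neighbour, the receptor is cut, and its released intracellular part joins the DNA-binding protein RBPJ to switch on genes of the HES and HEY families. In blood vessels DLL4 acting through NOTCH1 favours arterial over venous identity, and SOX17 and SOX18 act in the same endothelial cells. JAG1 and HEYL are also known from the smooth muscle and pericytes that wrap vessels, NOTCH2 from mural and myeloid cells, and GJA4 and GJA5 encode connexin 37 and connexin 40, which form gap junctions between arterial endothelial cells.

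None of the 10 genes passed an adjusted p-value of 0.05 in the edgeR quasi-likelihood test, where 0.235% of all tested genes did (0.104% lower and 0.13% higher). DESeq2 also called 0 of the 10, among 252 genes called over the whole table, while limma-voom called no gene of the table and so says nothing about the 10. Without adjustment, 3 of 10 had a p-value under 0.05, beside 12.4% of all tested genes (5.27% lower and 7.17% higher). These were Dll4 and Heyl, at lower levels in transferred hearts, and Notch2, at a higher level. The same 3 genes were those in which the values of the 4 control and 3 transferred hearts did not overlap, beside 11.2% of all tested genes (5.22% lower and 5.99% higher). The median log2 fold change was -0.07 over the 10 genes and -0.002 over all tested genes, and 4 of the 10 were above 0. Summed over the 10 genes, control hearts held 540.2 to 594 CPM and transferred hearts 512 to 532 CPM, where CPM is counts scaled to a common library size by TMM. No test was made of the group as a whole.

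The promoters of Dll4, Notch1 and Notch2 are printed here, and those of Jag1, Gja4 and Gja5 are described by their counts below. RefSeq promoter sequences (GRCm38.p6) were matched for 6 of the 10 genes, namely Dll4, Jag1, Notch1, Notch2, Gja4 and Gja5. Each line gives the 250 bases upstream of the annotated start, 5′ to 3′ on the gene's own strand. Capitals mark the letters GGGCGG or their reverse complement, the GC box bound by SP-family factors, a motif chosen after the sequences were seen.
Dll4 (chr2:119325534-119325783, + strand): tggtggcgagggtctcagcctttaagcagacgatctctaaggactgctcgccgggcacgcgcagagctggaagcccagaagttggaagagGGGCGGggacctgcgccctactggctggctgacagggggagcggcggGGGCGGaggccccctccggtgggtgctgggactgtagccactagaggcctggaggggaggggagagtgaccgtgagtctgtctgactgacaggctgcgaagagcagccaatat
Notch1 (chr2:26503823-26504072, - strand): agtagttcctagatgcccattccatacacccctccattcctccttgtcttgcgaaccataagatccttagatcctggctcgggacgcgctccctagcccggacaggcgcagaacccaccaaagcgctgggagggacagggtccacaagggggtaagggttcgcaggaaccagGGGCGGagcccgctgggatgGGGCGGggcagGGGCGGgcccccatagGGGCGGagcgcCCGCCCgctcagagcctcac
Notch2 (chr3:98013288-98013537, + strand): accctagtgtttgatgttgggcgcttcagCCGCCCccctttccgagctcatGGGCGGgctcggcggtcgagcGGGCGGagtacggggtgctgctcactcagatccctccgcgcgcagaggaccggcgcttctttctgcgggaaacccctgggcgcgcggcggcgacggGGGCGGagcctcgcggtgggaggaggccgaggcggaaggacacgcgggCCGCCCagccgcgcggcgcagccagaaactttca

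Counts of the GC box were 2 in Dll4, 5 in Notch1 and 5 in Notch2. The other matched windows held fewer, 0 in Jag1, 1 in Gja4 and 1 in Gja5. At least 1 was present in 32.7% of all 32851 promoter windows of this length. The GC content was 65.6% in Dll4, 66% in Notch1 and 72% in Notch2. It was 57.2% in Jag1, 61.2% in Gja4 and 56.4% in Gja5, against a median of 52.4% over all windows. The RBPJ core GTGGGAA, searched on both strands, was in none of the 6 windows and in 5.42% of all windows. The HEY E-box CACGTG was likewise in none of the 6 and in 6.02% of all windows. The SOX core ACAAT occurred once in Jag1, starting 163 bases upstream of the start on the opposite strand, and once in Gja4, 86 bases upstream on the gene's strand, and it was in 27.7% of all windows. These motifs overlapped neither each other nor a GC box. A match here describes letters in a short window and is not a binding site.

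Levels were compared between genes per kilobase of combined exons, in CPM per kilobase. In control hearts Sox18 stood highest, at 76.5 ± 3.53 CPM per kilobase (SD, n = 4), the 88.6th percentile of all tested genes. Dll4 followed at 22.6 ± 1.11 and Heyl at 21.9 ± 0.639 CPM per kilobase (SD, n = 4). Hey1 was at 15.9 ± 6.22, Gja4 at 15.5 ± 1.35, Notch1 at 10.2 ± 0.480 and Gja5 at 7.32 ± 1.14 CPM per kilobase. The lowest were Notch2 at 3.07 ± 0.331, Sox17 at 3.04 ± 0.500 and Jag1 at 3.02 ± 0.411 CPM per kilobase, near the 33.0th percentile.

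Sox18 was above Dll4 in all 4 control and all 3 transferred hearts. The steps from Gja4 to Notch1, from Notch1 to Gja5 and from Gja5 to Notch2 also held in every heart. The other neighbours in this order crossed. Dll4 was above Heyl in 3 of 4 control and 2 of 3 transferred hearts, and Hey1 was above Gja4 in 2 of 4 and 2 of 3. Among the 3 lowest genes, Notch2 was above Sox17 in 2 of 4 control hearts and 1 of 3 transferred hearts, so their order is not resolved.

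Dll4, the ligand that endothelial tip and arterial cells present, lies on chromosome 2, positions 119325784 to 119335666, and had the clearer difference of the ligands. Its values were 76.8, 73.5, 82.6 and 79.4 CPM in control hearts 1 to 4 and 71.5, 45.2 and 56.9 CPM in transferred hearts 1 to 3. All 3 transferred values lay under all 4 control values, with transferred heart 1 just under the lowest control. The means were 78.1 ± 3.84 CPM (SD, n = 4) and 57.9 ± 13.2 CPM (SD, n = 3). In the edgeR fit this was -0.43 on the log2 scale (standard error 0.14, adjusted p = 0.231, unadjusted 0.0100), a difference of -25.9% with a 95% interval from -39.9% to -8.56%. In a bulk sample, fewer cells that carry a transcript and less of it per cell cannot be told apart.

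The Dll4 difference depended on which hearts entered. The 2 letter-prefix hearts differed by -0.10 in log2 CPM, and the other 5 hearts by -0.63 between the group means. Leaving out transferred heart 2 gave a log2 value of -0.28 (edgeR adjusted p = 0.502), and leaving out transferred heart 1 gave -0.61 (edgeR adjusted p = 0.0606). The span of Dll4 overlaps the antisense RNA Gm14207, which held 347 counts over all hearts beside 10226 for Dll4, and whether counting used strand is not given in the sources used here.

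Jag1 (chromosome 2, 137081451 to 137116520), the ligand known from arterial walls, did not separate the groups. It stood at 36.8, 29.2, 34.9 and 40.8 CPM in control hearts and at 28.6, 44.3 and 38.6 CPM in transferred hearts. Transferred heart 1 held the lowest value of the 7 and transferred heart 2 the highest. Its log2 fold change was 0.07 (standard error 0.16, edgeR adjusted p = 0.896), and the 95% interval of the difference ran from -17.9% to 34.2%.

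Notch1 (chromosome 2, 26457902 to 26503822), the main endothelial receptor for DLL4, had the narrowest interval of the 10 genes. Control hearts held 96.3, 91.0, 102 and 97.2 CPM, and transferred hearts held 91.1, 88.4 and 106 CPM. The transferred values spanned the whole range of the controls. Means of 96.7 ± 4.56 CPM (SD, n = 4) and 95.1 ± 9.41 CPM (SD, n = 3) gave a log2 fold change of -0.02 (standard error 0.08, edgeR adjusted p = 0.940). The 95% interval of the difference was -13.6% to 12.1%. Its span overlaps 0610009E02Rik on the other strand, which held 202.5 counts over all hearts beside 14119 for Notch1.

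Notch2 (chromosome 3, 98013538 to 98150367), the second receptor, was the one member of the 10 that was both higher in transferred hearts and free of overlap. Control hearts held 32.8, 27.2, 35.1 and 33.8 CPM, and transferred hearts held 42.5, 38.3 and 46.3 CPM. Its means were 32.2 ± 3.48 CPM (SD, n = 4) and 42.4 ± 4.03 CPM (SD, n = 3). The edgeR fit gave 0.40 on the log2 scale (standard error 0.11, adjusted p = 0.186, unadjusted 0.00574), a difference of 31.5% with a 95% interval from 10.5% to 56.5%. The difference in log2 CPM was 0.37 between the letter-prefix hearts and 0.40 among the other hearts. Over 20 alternative settings its log2 fold change stayed between 0.32 and 0.46, with edgeR, DESeq2 or limma adjusted p-values from 0.0564 to 0.424. The overlapping antisense RNA Gm40103 held 60 counts beside 5347 for Notch2.

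**Figure D1:**
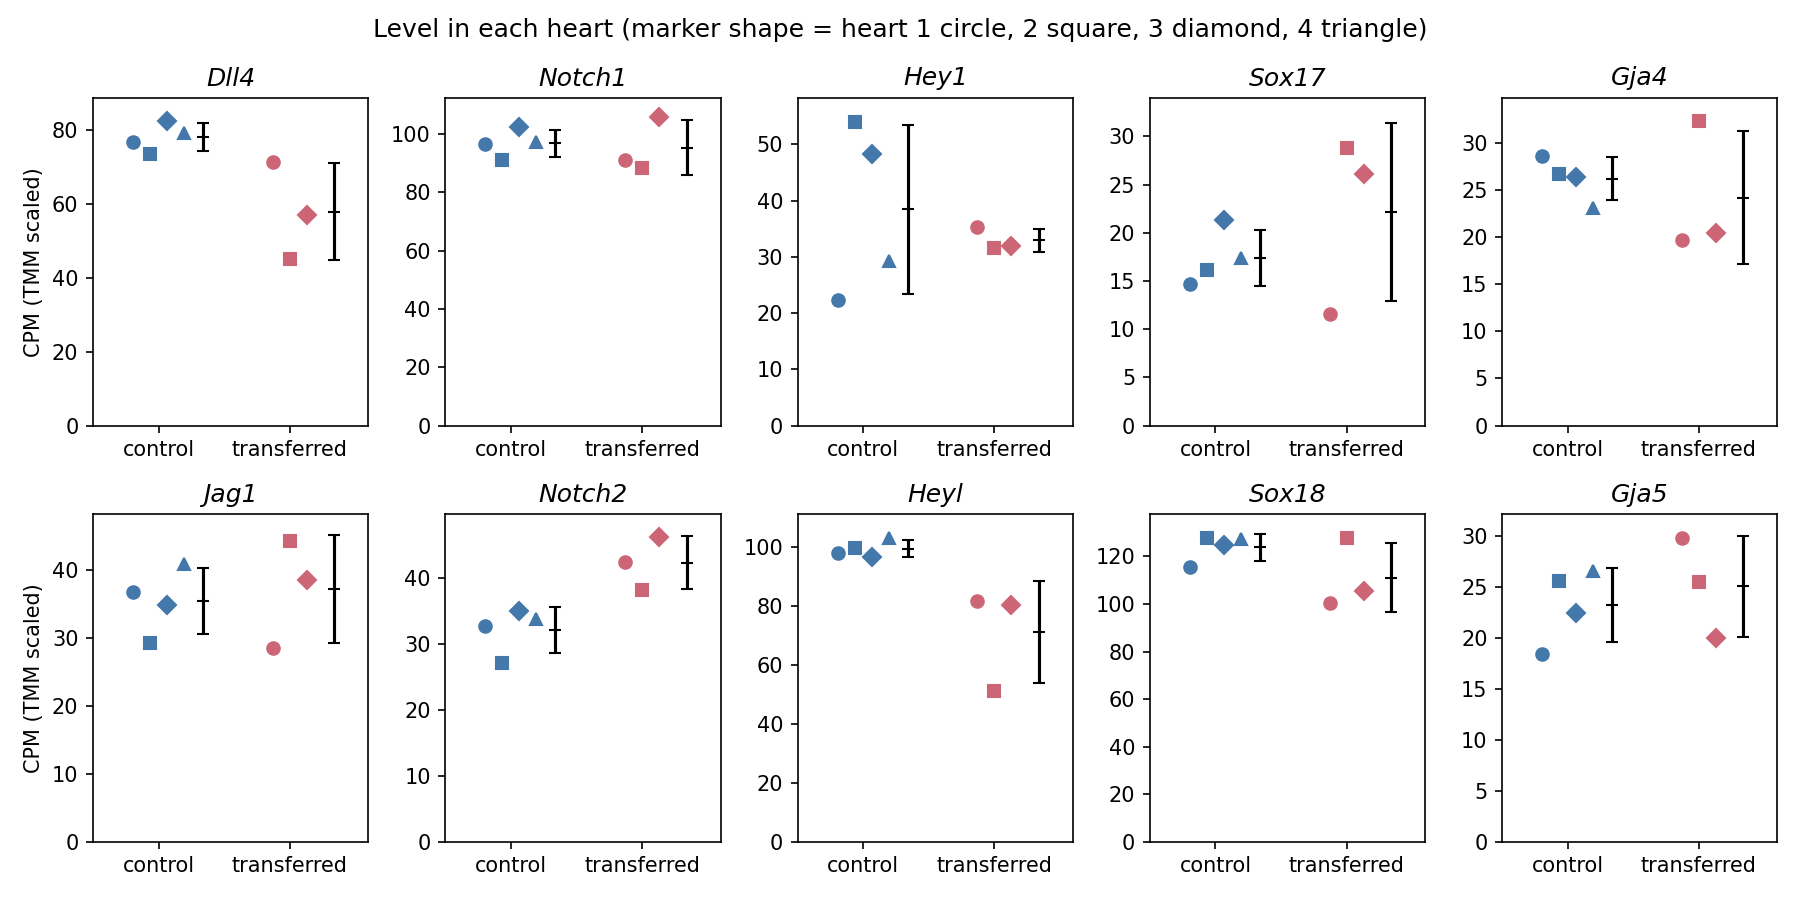
Level of each of the 10 genes in each heart, in TMM-scaled CPM on a linear axis from 0, with control hearts in blue, transferred hearts in red, the marker shape naming the heart and the bar giving mean and SD (n = 4 and n = 3). The groups do not overlap in Dll4 and Heyl, where transferred heart 2 is lowest at 45.2 and 51.3 CPM, and in Notch2, where the transferred hearts run from 38.3 to 46.3 CPM.

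Myeloid cells also express Notch2, so macrophage genes are given beside it. All 10 tested genes of the macrophage list had log2 fold changes above 0, with a median of 0.90, and 2 of them rose past the edgeR threshold. These were C1qb, a complement gene, at 0.98, and Mrc1, the mannose receptor gene, at 0.77, each with an edgeR adjusted p of 0.0384. Both calls were lost in 9 of the 19 alternatives that tested them, with adjusted p-values up to 0.157 for each. These were limma-voom, the source-name form as a covariate, the fit without the letter-prefix hearts, and the fits without any 1 control heart or without transferred heart 1 or 2. Their summed level ran from 433 to 636 CPM in control hearts and from 768 to 1115 CPM in transferred hearts, and none of the listed genes in the table was at 0. Transferred heart 3 had the highest Notch2 value and the lowest macrophage sum of the transferred hearts. The part of these cells in the Notch2 difference was not tested.

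The 2 receptor genes were compared within each heart, as the log2 ratio of Notch1 to Notch2 CPM. In it the scaling factors nearly cancel, and gene length cancels from its group difference. In a bulk sample this ratio spans all cell types and is not a balance within any cell. Ratios were 1.55, 1.74, 1.54 and 1.52 in control hearts and 1.10, 1.20 and 1.19 in transferred hearts. Every transferred heart lay under every control heart. The means were 1.59 ± 0.10 (SD, n = 4) and 1.16 ± 0.06 (SD, n = 3), a difference of -0.42 (two-sided exact permutation p = 0.0286, which is the lowest value 35 splits can give). Ratios of this kind were computed for the 5 pairs after the values had been seen, and the exact p adjusted over the 5 pairs was 0.143. Notch1 differed by -0.02 and Notch2, already seen not to overlap, by 0.40 in the edgeR fit. The ratio thus largely restates the Notch2 difference and is not separate evidence.

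In the other 4 pairs the groups overlapped. The log2 ratio of Dll4 to Jag1 averaged 1.15 ± 0.17 in the controls and 0.64 ± 0.65 (SD) after transfer, from 0.03 in transferred heart 2 to 1.32 in transferred heart 1 (exact permutation p = 0.171, adjusted 0.429). The differences were -0.38 for Heyl to Hey1, -0.42 for Sox18 to Sox17 and -0.25 for Gja4 to Gja5, with exact permutation p-values of 0.400, 0.257 and 0.457 (adjusted 0.457, 0.429 and 0.457). The SD over transferred hearts, 0.65 for Dll4 to Jag1, 0.59 for Sox18 to Sox17 and 0.48 for Gja4 to Gja5, was larger than the difference in these 3 pairs.

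**Figure D2:**
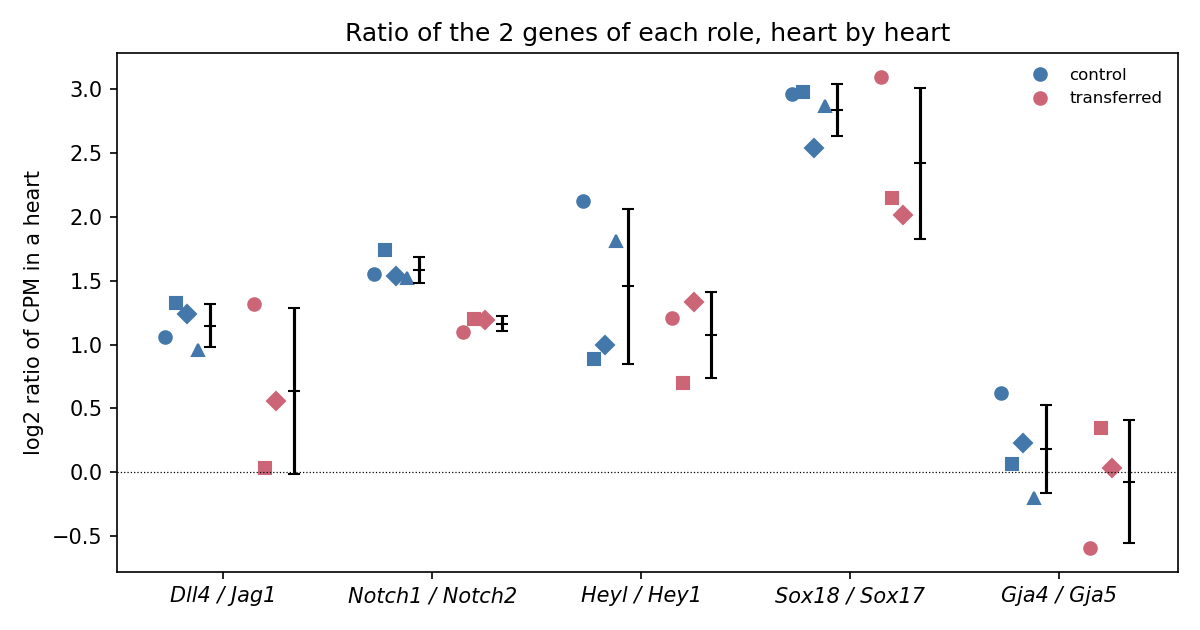
Log2 ratio of the CPM of the 2 genes of each role within a heart, with control hearts in blue, transferred hearts in red, marker shapes for hearts 1 (circle), 2 (square), 3 (diamond) and 4 (triangle) and bars for mean and SD (n = 4 and n = 3). Only the Notch1 to Notch2 ratio separates the groups, at 1.52 to 1.74 in control and 1.10 to 1.20 in transferred hearts.

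Heyl (chromosome 4, 123233556 to 123249870), a HEY-family repressor switched on by Notch in vessel walls, was the most even of the 10 across control hearts, with a coefficient of variation of 2.91%, against 24.2% in transferred hearts. Control hearts held 97.9, 99.8, 96.5 and 103 CPM, and transferred hearts held 81.9, 51.3 and 80.4 CPM. Transferred hearts 1 and 3 were close to each other, and transferred heart 2 was far lower. Mean levels were 99.4 ± 2.90 CPM in control (SD, n = 4) and 71.2 ± 17.2 CPM in transferred hearts (SD, n = 3). On the log2 scale the edgeR fit gave -0.48 (standard error 0.15, adjusted p = 0.215, unadjusted 0.00821). The 95% interval of the difference was -42.9% to -10.3%.

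Transferred heart 2 also set the size of the Heyl difference. Without it the edgeR fit gave -0.29 (adjusted p = 0.331), and the remaining values still did not overlap. By source-name form, log2 CPM differed by -0.26 in the letter-prefix pair and by -0.64 in the rest. Mural marker genes, from cells that can also carry Heyl, had 6 of 8 tested genes below 0 with none past the test. Their summed level overlapped between the groups, from 6444 to 8213 CPM in control and from 6657 to 7281 CPM in transferred hearts. Des alone made up most of this sum, with means of 4923 CPM in control and 4611 CPM in transferred hearts. The sum therefore says little about the other mural genes, and the part of mural cells in the Heyl difference was not tested.

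Hey1 (chromosome 3, 8663359 to 8667038), the endothelial HEY factor, was uneven among the controls. Control hearts held 22.4, 53.9, 48.2 and 29.3 CPM, and transferred hearts held 35.4, 31.6 and 31.9 CPM. All transferred values lay inside the control range, whose coefficient of variation was 39.1% against 6.35% in transferred hearts. Its log2 fold change of -0.23 had a standard error of 0.28 (edgeR adjusted p = 0.813), with an interval of the difference from -45.5% to 34.1%. Leaving out control heart 1 gave -0.41 on the log2 scale (edgeR adjusted p = 0.511), control heart 4 -0.33, control heart 3 -0.10 and control heart 2 -0.02 (edgeR adjusted p = 0.991). The letter-prefix hearts differed by 0.66 in log2 CPM and the others by -0.42, so the sign did not hold in both. Fractional counts were present in 3 of 7 Hey1 values, and its span overlaps LOC115489673 on the same strand, which held 212.5 counts over all hearts beside 5446 for Hey1.

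Sox17 (chromosome 1, 4490928 to 4497426), a driver of arterial fate, split the transferred hearts. It stood at 14.7, 16.1, 21.3 and 17.4 CPM in control hearts and at 11.6, 28.7 and 26.1 CPM in transferred hearts. Transferred heart 1 was the lowest of all 7, and transferred hearts 2 and 3 were the highest. A log2 fold change of 0.35 came with a standard error of 0.28 (edgeR adjusted p = 0.669) and a 95% interval of the difference from -17.5% to 96.7%. It was 0.66 without transferred heart 1 (edgeR adjusted p = 0.0999) and 0.12 without transferred heart 2 (edgeR adjusted p = 0.950). The letter-prefix hearts differed by -0.34 in log2 CPM and the others by 0.59, so the sign did not hold in both.

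Sox18 (chromosome 2, 181669837 to 181671640), the SOXF factor shared with lymphatic vessels, overlapped between the groups. Control hearts held 115, 128, 125 and 127 CPM, and transferred hearts held 100.2, 128 and 106 CPM. Transferred heart 2 sat among the controls and the other transferred hearts lay under them. Its log2 fold change, -0.16 (standard error 0.09, edgeR adjusted p = 0.558), went with an interval of the difference from -22.4% to 3.88%. Without transferred heart 2 it was -0.27 (edgeR adjusted p = 0.385), and the groups then did not overlap, while without transferred heart 1 it was -0.09 (edgeR adjusted p = 0.717).

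Gja4 (chromosome 4, 127311420 to 127314039), encoding connexin 37, followed the same layout. Its control values were 28.5, 26.7, 26.4 and 23.1 CPM and its transferred values 19.7, 32.3 and 20.5 CPM. Transferred heart 2 was the highest of the 7, while transferred hearts 1 and 3 were the lowest. Here the log2 value was -0.12 (standard error 0.17, edgeR adjusted p = 0.841), with an interval of the difference from -29.4% to 20.6%, and it was -0.38 without transferred heart 2 (edgeR adjusted p = 0.389).

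Gja5 (chromosome 3, 97032402 to 97053634), encoding connexin 40, also overlapped between the groups. It stood at 18.5, 25.6, 22.5 and 26.6 CPM in control hearts and at 29.8, 25.4 and 19.96 CPM in transferred hearts. The highest transferred heart was number 1, where Gja4 was lowest. With a log2 fold change of 0.11 (standard error 0.16, edgeR adjusted p = 0.842), the interval of the difference ran from -16.4% to 39.1%. By source-name form, the letter-prefix pair and the other hearts differed in opposite directions in log2 CPM for Gja5 (0.69 and -0.14), Gja4 (-0.53 and 0.02) and Jag1 (-0.36 and 0.25).

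Transferred heart 2 thus held the lowest Dll4, Heyl and Notch1 values of the 7 hearts and the highest Jag1, Sox17 and Gja4 values. It also stood apart in other cell markers. Its summed neutrophil markers reached 309.7 CPM, against 13.1 to 52.9 CPM in the other 6 hearts, and its summed venous markers reached 1125 CPM, against 636 to 815 CPM. Its summed pan-endothelial markers, 4308 CPM, lay inside the control range of 3767 to 4518 CPM. The part of these cells in the values of transferred heart 2 was not tested.

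To set the members against endothelial RNA as a whole, each was expressed relative to the mean log2 CPM of 17 tested pan-endothelial markers. Of these 17 markers 0 passed the test, and their median log2 fold change was 0.02. On this relative scale Dll4 differed by -0.47 between the group means and Heyl by -0.53, and in both the groups still did not overlap. Notch2 differed by 0.38 on the same scale, where transferred heart 2, at -2.16, fell inside the control range of -2.50 to -2.10. The largest of the other 7 differences was 0.24, for Sox17.

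Of 61 other Notch pathway genes listed, 30 were in the analysed part of the table and 25 were tested. In the edgeR test 0 passed in either direction. Before adjustment 1 higher and 1 lower had an edgeR p under 0.05, beside 12.4% of all tested genes. The groups did not overlap in 2 of 25, beside 11.2% of all tested genes. These were Rbpj and Maml3 (the latter at -0.18, edgeR adjusted p = 0.509, and named after its values were seen). Over the 25 genes the median log2 fold change was 0.03, and 14 were above 0 and 11 below. The smallest p-value belonged to Rbpj, which encodes the DNA-binding partner of all NOTCH receptors. It stood at 75.2, 77.0, 80.3 and 81.1 CPM in control hearts and 96.6, 99.6 and 83.9 CPM in transferred hearts, with no overlap and a log2 difference of 0.25 (edgeR adjusted p = 0.241). Mib2, encoding a ubiquitin ligase that acts on Notch ligands, was at -0.22 (edgeR adjusted p = 0.400).

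Nrarp, a target and feedback inhibitor of Notch, was picked out after its values were seen, as a target like Hey1 and Heyl. Its control values were 37.4, 59.6, 69.7 and 51.7 CPM and its transferred values 42.5, 30.8 and 46.7 CPM. Control heart 1 lay among the transferred hearts, and the lowest value was again in transferred heart 2. On the log2 scale this gave -0.45 (standard error 0.21, edgeR adjusted p = 0.433). Genes of the gamma-secretase complex, which cuts the receptor, had log2 fold changes of 0.10 for Ncstn, 0.04 for Psenen, 0.002 for Aph1a and -0.09 for Psen2.

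Of 25 other arterial endothelial genes listed, 11 were tested and 0 passed the edgeR test. Before adjustment 1 higher and 2 lower had an edgeR p under 0.05, beside 12.4% of all tested genes. The median log2 fold change was -0.10. In 3 of 11 the groups did not overlap, beside 11.2% of all tested genes. Efnb2, encoding the arterial ligand ephrin B2, came nearest the threshold. It stood at 73.8, 75.7, 72.0 and 69.9 CPM in control hearts and at 53.7, 60.5 and 55.7 CPM in transferred hearts, under every control heart in all 3. Its log2 fold change was -0.36 with a standard error of 0.08 (edgeR adjusted p = 0.0808).

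Tm4sf1, encoding a membrane protein of endothelial cells, stood at 219, 198, 204 and 194 CPM in control hearts and 265, 273 and 222 CPM in transferred hearts, which is 0.31 on the log2 scale (edgeR adjusted p = 0.185). Cxcr4, the chemokine receptor of arterial sprouts, was picked out after its values were seen, as the third gene without overlap. It stood at 25.1, 14.4, 13.8 and 24.0 CPM in control hearts and 11.2, 13.5 and 7.16 CPM in transferred hearts, with transferred heart 2 just under control heart 3. The edgeR fit gave -0.86 on the log2 scale (standard error 0.28, adjusted p = 0.264). Arterial genes thus gave values on both sides of 0, with Dll4, Efnb2 and Cxcr4 lower and Tm4sf1 higher, none of them past the test.

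**Figure D3:**
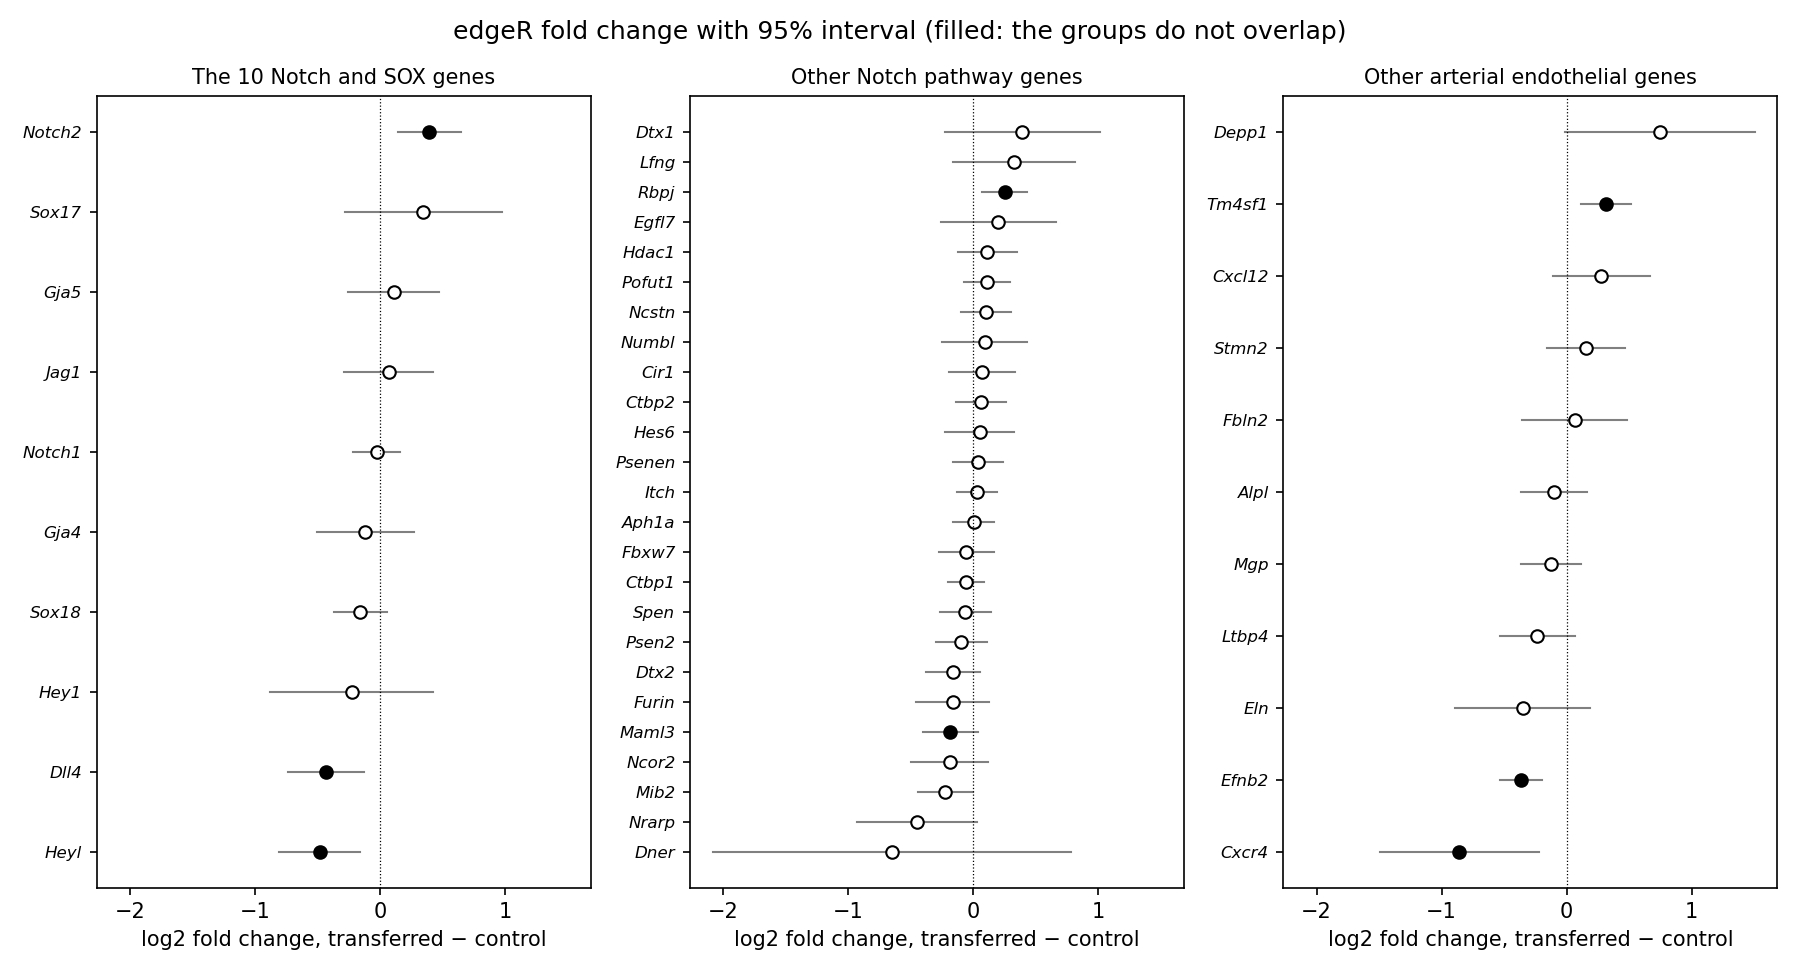
Log2 fold change (transferred minus control hearts) with its 95% interval from the edgeR quasi-likelihood fit, for the 10 genes, 25 other Notch pathway genes and 11 other arterial endothelial genes, where filled circles mark genes whose 4 control and 3 transferred hearts do not overlap. Heyl at -0.48, Dll4 at -0.43 and Notch2 at 0.40 are the filled circles of the first panel.

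Of 10 tested venous endothelial genes, 9 were above 0 with a median log2 fold change of 0.64. The groups did not overlap in 6 of the 10, beside 11.2% of all tested genes. The 5 higher ones were Ackr1, Vcam1, Sele, Vwf and Selp, and Aplnr was lower. The groups overlapped in Emcn (0.26), Ephb4 (0.23), Nr2f2 (0.16) and Nrp2 (0.01), with edgeR adjusted p from 0.350 to 0.978. Without transferred heart 2 the median was 0.45, and the same 5 higher genes did not overlap, beside 17% of all tested genes. The apelin receptor gene Aplnr passed the edgeR test and fell (log2 fold change -0.91, edgeR adjusted p = 0.0384), while Ackr1, the venular chemokine receptor, was at 2.90 (edgeR adjusted p = 0.0702), or 1.93 without transferred heart 2 (edgeR adjusted p = 0.203). Its control mean of 0.364 CPM was near the level of 3 counts, 0.119 to 0.183 CPM. Among 10 tested capillary genes the median was -0.03, and the water channel gene Aqp1 passed the test and fell (log2 fold change -1.01, edgeR adjusted p = 0.0384). The other capillary gene named by the rule, Timp4, was at -0.45 (edgeR adjusted p = 0.617). Both calls, Aplnr and Aqp1, were lost in 8 of the 19 alternatives that tested them, with adjusted p-values up to 0.156 for each. These were limma-voom, the source-name form as a covariate, the fit without the letter-prefix hearts, and the fits without any 1 control heart or without transferred heart 2. No test compared these lists with the 10 members.

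**Figure D4:**
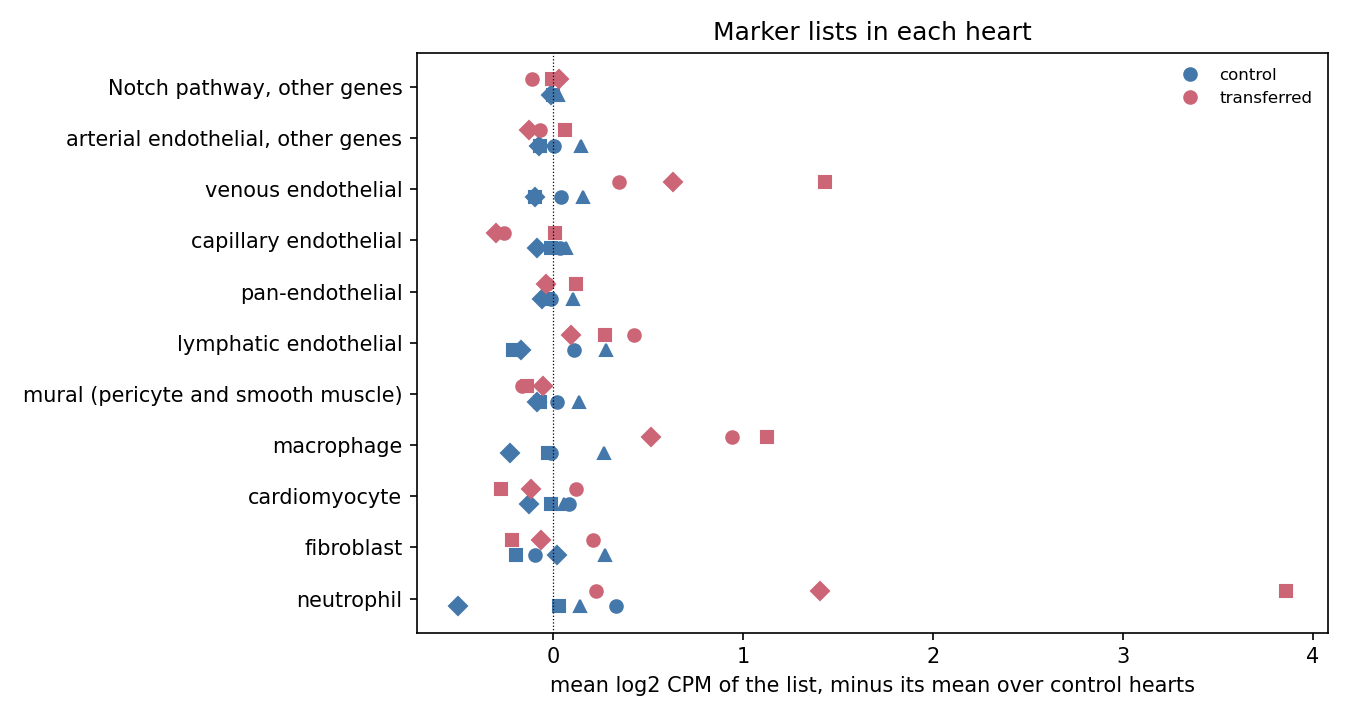
Mean log2 CPM of the tested genes of each list in each heart, minus the list's mean over the control hearts, with control hearts in blue, transferred hearts in red and marker shapes for hearts 1 (circle), 2 (square), 3 (diamond) and 4 (triangle). The list means of macrophage and venous genes lie above all control hearts in the 3 transferred hearts, although 2 of 10 macrophage genes and 0 of 10 venous genes passed the test upward, the neutrophil mean stands highest in transferred heart 2, and pan-endothelial and mural means overlap between the groups.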

How the data were processed

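Polyadenylated RNA of 7 hearts was sequenced. Per the submitters' processing notes, bcl2fastq 2.20.0.422, cutadapt 2.5, STAR 2.7.2b, featureCounts 1.6.4 and DESeq2 1.22.2 were used with GRCm38.p6, and their settings are not given in the sources used here. The authors deposited estimated counts per gene, not normalized, of which 4.63% had a fractional part. These were rounded to whole counts for testing, and 1 unfinished row was left out. The table analysed covers chromosomes 1 to 7 and the start of chromosome 8, and genes elsewhere (among them Notch3, Notch4, Hes1 and Hey2) are not analysed here. Column totals over this part, from 16402194 to 25190580 counts, are not library depth. A level of 3 counts corresponds to 0.119 to 0.183 CPM, which covers counting error only. All 20343 gene identifiers and start positions matched RefSeq's table of GRCm38.p6.

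Genes were filtered with filterByExpr, scaled by TMM and tested with the edgeR 4.0.16 robust quasi-likelihood test in R 4.3.3, with Benjamini-Hochberg adjustment over all 7667 tested genes. Standard errors came from the F statistic. Log2 CPM used a prior count of 2. DESeq2 1.42.0, limma-voom (limma 3.58.1), other scalings, filters, dispersion methods, unrounded or whole counts only, the identifier prefix as a covariate and left-out hearts were alternatives. The fit was tested on simulated data. Groups came from the labelled treatment, and replicates were numbered in accession order. Same-group libraries differed beyond sampling noise (chi-square per degree of freedom of at least 18.6). Intervals of fold changes are 95% intervals of the edgeR fit.

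The 10 genes and the gene lists were chosen with earlier results of these data known. Named genes are all 10 members, in each list the 2 with the lowest p-value and any past the threshold, Aqp1 and Aplnr, and the 3 genes most like the members. Nrarp, Cxcr4, Maml3, Prox1, Des, the other venous genes and the receptor-cutting enzymes were named after their values were seen.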

Additional observations from a re-analysis of the deposited data

How the results depend on the processing

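No paired analysis was possible because the replicate numbers follow accession order and the titles of the groups share only 1 number. In all 20 alternatives 0 of the 10 genes passed (8 were tested among genes with whole counts only, without Dll4 and Hey1), with 2 to 5 under an unadjusted p of 0.05, beside 8.66% to 14.6% of all tested genes (5 of 10 beside 9.06% without transferred heart 2, 4 of 10 beside 13.6% without the letter-prefix hearts), and adjusted p-values ran from 0.0606 to 0.502 for Dll4, from 0.0614 to 0.446 for Heyl and from 0.0564 to 0.424 for Notch2. Dll4, Heyl, Notch2, Hey1, Sox17 and Sox18 kept their direction in every alternative that tested them. The sign turned for Jag1 without control heart 2 (-0.012) or transferred heart 2 (-0.075), and leaving out 1 heart in turn gave -0.075 to 0.23. For Notch1 it turned without the letter-prefix hearts (0.012), control heart 3 (0.0048), transferred heart 1 (0.0074) or transferred heart 2 (0.028), and leaving out 1 heart in turn gave -0.11 to 0.028. For Gja4 it turned without the letter-prefix hearts (0.063) or transferred heart 1 (0.012), and over all alternatives it ran from -0.38 to 0.063, or to 0.012 with 1 heart left out. For Gja5 it turned without the same hearts (-0.12 and -0.033), and over all alternatives it ran from -0.12 to 0.25, or from -0.033 with 1 heart left out. Leaving out 1 heart gave from 3 to 5 members without overlap. Sox18 and Gja4 joined the 3 without transferred heart 2, where 17% of all tested genes did not overlap. Sox17 joined them without transferred heart 1, where 23.9% did not, and without the letter-prefix hearts, where 31.3% did not. The Notch1 to Notch2 ratio differed by -0.45 to -0.37 in the alternatives, chosen after seeing the data. With 1 heart left out its exact permutation p was 0.0667 to 0.1, as fewer splits remain. Against 18 genes called over the whole table (10 higher), total count scaling gave 35 (26 higher), all genes with at least 1 count 81 (66 higher), DESeq2 252 (192 higher) and whole-count genes only 9 (3 higher). Limma-voom, the prefix covariate and leaving out the letter-prefix hearts each gave 0, with 907, 973 and 1054 genes under an unadjusted p of 0.05. Leaving out 1 heart gave from 0 to 140. Without transferred heart 2, or without control heart 1, 2 or 4, it gave 0 (706, 831, 658 and 773 genes under the same unadjusted p), without control heart 3 it gave 1, and without transferred heart 3 it gave 140. The causes were not tested. Each member had at least 229 counts in every heart, and the groups hold 4 and 3 hearts.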

Other observations

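Lymphatic endothelial genes, which share Sox18 with the arterial programme, had 5 of 6 tested genes above 0 with a median log2 fold change of 0.25. None of them passed the edgeR test, and 2 had an unadjusted edgeR p-value under 0.05, beside 12.4% of all tested genes. Lyve1, encoding a hyaluronan receptor that resident macrophages also carry, was at 0.71 on the log2 scale (edgeR adjusted p = 0.128), and the chemokine gene Ccl21a was at 0.40 (edgeR adjusted p = 0.312). Prox1, the master factor of lymphatic identity, was at 0.05 (edgeR adjusted p = 0.887). Its control mean of 230 CPM was above those of the other tested lymphatic genes, and a bulk sample does not show which cells carry it. Among pan-endothelial markers the smallest p-values belonged to Tie1, an endothelial receptor kinase, at -0.28 (edgeR adjusted p = 0.185), and She, an adaptor gene, at -0.28 (edgeR adjusted p = 0.197). Tie1 stood at 221 to 251 CPM in control hearts and 184 to 202 CPM in transferred hearts.

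The remaining lists had no gene past the edgeR test (0 in each). Under an unadjusted edgeR p of 0.05 were 5 neutrophil genes and no gene of the other lists here, beside 12.4% of all tested genes. Median log2 fold changes were -0.04 over 12 cardiomyocyte genes, 0.01 over 8 fibroblast genes, -0.13 over 8 mural genes, -0.20 over 2 haemoglobin genes and 2.73 over 6 neutrophil genes. The genes chosen in them by the rule were Xirp2 (-0.36) and Tnnt2 (0.13), Col5a2 (-0.25) and Dpt (0.11), Rgs5 (-0.20) and Lmod1 (-0.36), Hbb-bt (-0.21) and Hbb-bs (-0.19), and Cxcr2 (3.77) and S100a8 (4.07), each as a log2 fold change. The size of the neutrophil values rested on transferred heart 2. Without it, an alternative chosen after seeing the data, their median was 1.01, Cxcr2 was at 1.63 and S100a8 at 1.82 (edgeR adjusted p = 0.385 and 0.340). In that fit 5 of the 6 genes stayed above 0. Cxcr2 and S100a8 still did not overlap between the groups, beside 17% of all tested genes. The single tested endocardial gene, Cytl1, was at -0.26.

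The genes whose log2 CPM was most like the mean standardised level of the 10 members over 7 hearts were Gm11836, Gm14148 and Ywhaq-ps2, with Pearson r of 0.97, 0.97 and 0.95. Their control means were 1.14, 1.29 and 0.898 CPM, and with 7 hearts and 7667 genes such values are a description only.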
